A study of Homo sapiens with 5 samples.

Results

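Vehicle-treated LNRII cells were compared with LNCaP cells that carried a control hairpin, on 1 Illumina bead array each. A gene entered the comparison when a probe with 1 gene symbol was detected on at least 1 of these 2 arrays at a detection p-value below 0.01. This held for 14430 of 47306 probes and for 10857 of the 20044 genes named on the array. The other 3 of the 5 arrays of the study were normalized together with these and were used to see which differences were present elsewhere.

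LNCaP is a prostate cancer line derived from a lymph node metastasis, and it responds to androgen. LNRII, in the group called LNRII control, is LNCaP infected with a lentivirus that expresses TGFBR2, the type II receptor for TGF-beta, from a CMV promoter. It was selected with puromycin as a stable line and grown for 3 days with vehicle. The LNCaP shCtr cells were infected with a lentivirus carrying a control hairpin, put under puromycin 48 h later and are labelled day 10. Whether that culture also had vehicle for 3 days is not given for this array. All cultures are labelled wild type and were kept in RPMI with 10% FBS. The remaining arrays held LNRII with TGFB3 at 5 ng/ml for 3 days (LNRII TGFB3), LNCaP with a hairpin against FOXA1 (LNCaP shFOXA1, day 10) and that hairpin with the TGF-beta type I receptor kinase inhibitor LY2157299 at 10 µM for 3 days (LNCaP shFOXA1 LY2157299). Parent line against derivative, receptor virus against hairpin virus, and days in culture differ together between the compared arrays and cannot be told apart.

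Ligand-bound TGFBR2 recruits and phosphorylates the type I receptor, which phosphorylates SMAD proteins that then act in the nucleus on target genes. LNCaP cells are known for a weak response to TGF-beta and for low TGFBR2, and receptor-bearing derivatives are used to restore the pathway. Luminal prostate cells owe much of their secretory programme to androgens, and FOXA1 opens chromatin at many of the genes involved. Androgens are inactivated in these cells by UGT2B enzymes, which attach glucuronic acid to them.

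Levels below are normalized log2 intensities, and signed differences are LNRII control minus LNCaP shCtr on the log2 scale. With 1 array a group there is no test and no replicate check, so a gene is said to have risen or fallen when the arrays differed by at least 2-fold. The only error available is the disagreement of probes of the same gene, an SD of 0.27 on a log2 difference over 2220 genes with several detected probes. Because the probes were read on the same arrays, it leaves out error shared by all probes of an array and the spread between cultures. A gene undetected on its dim side was set to the lowest detected level of that array, and its difference is a bound, written "at least" or "or lower". List medians include such bounds. Where a difference is followed by a second one for LNRII TGFB3, both are taken against LNCaP shCtr. Since RNA of whole cultures was measured, fewer cells of a kind and less RNA per cell cannot be told apart.

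The LNRII control array stood apart from the other 4 in its depth of detection. It detected 15273 probes, or 32.3%, against 17955, or 38.0%, on the LNCaP shCtr array, and between 17505 and 18035 on the other 3. Its lowest detected log2 level was 5.03, against 4.68 on LNCaP shCtr. Mean raw intensities were 278 and 305. RNA18SN5, an 18S ribosomal RNA gene singled out after its values were seen, read 7.18 in LNRII control and 7.53 in LNRII TGFB3, against 9.53, 9.76 and 9.22 on the LNCaP shCtr, shFOXA1 and shFOXA1 LY2157299 arrays. The part of these differences in the results was not tested, and the LNRII TGFB3 array is given beside most genes named below.

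The labelled cell type was checked against markers of luminal LNCaP cells. The luminal markers KLK3, KLK2, FOLH1, KRT8, KRT18 and HOXB13 were detected on all 5 arrays. FOLH1, which encodes prostate-specific membrane antigen, read 9.22 in LNRII control and 9.56 in LNCaP shCtr. HOXB13, a homeobox factor of prostate identity, read 8.37 and 8.40 in the same order of arrays. KLK3, KLK2 and KRT8 were more than 2-fold lower in LNRII control (-1.57, -1.03 and -1.19) and are described below. Of 12 fibroblast markers, 0 were detected on either array. Among 38 neuroendocrine and neuronal genes, 9 were detected in LNRII control and 8 in LNCaP shCtr, with summed linear levels of 7702 and 7002. SYT4 read 12.39 and 12.32 on these arrays, while CHGA, SYP and INSM1 were undetected on both. Among 26 keratin and basal genes, KRT8 and KRT18 included, 6 and 7 were detected, with summed levels of 954.5 and 1373.3. KRT5 and KRT15 were undetected on both. Of 15 leukocyte and endothelial markers, 3 were detected in LNRII control and 2 in LNCaP shCtr, with summed linear levels of 638 and 648, and PTPRC, PECAM1 and the haemoglobin genes were undetected on both.

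LNRII control had 236 of 10857 genes at least 2-fold higher than LNCaP shCtr (2.17%) and 333 at least 2-fold lower (3.07%). Among these genes the median size was 2.40-fold for those that rose and 2.47-fold for those that fell, and 29 and 49 of them passed 4-fold. The genes that rose made up 41.5% of those past 2-fold. Scaling each array to its median in place of quantile normalization moved the median of all genes by -0.26 and that share to 11.8%, with 110 genes higher and 824 lower. It kept 110 of the 236 increases and all 333 decreases. Of the genes named by rule, 27 of 48 that rose and 41 of 57 that fell kept their direction and 2-fold size under every background correction, scaling, detection limit, probe choice and processed table tried, leaving aside the filter for detection on both arrays. Close to the threshold, 203 genes differed by 0.9 to 1.0 and 127 by 1.0 to 1.1.

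**Figure D1:**
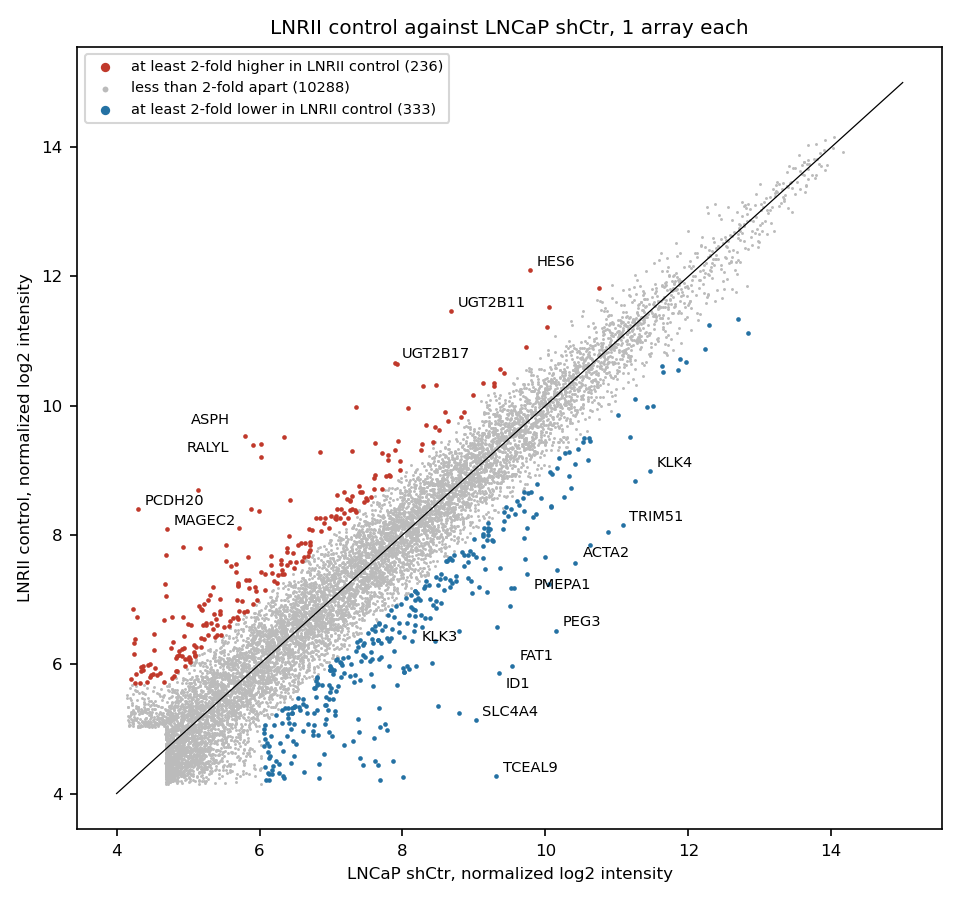
Normalized log2 intensity of 10857 genes on the LNRII control array (vertical axis) against the LNCaP shCtr array (horizontal axis), 1 point a gene and 1 array a group. The 236 genes that were at least 2-fold higher in LNRII control are red, the 333 that were at least 2-fold lower are blue, and the line marks equal levels. Undetected values are drawn at their measured level, so points at the lower left can lie nearer to or farther from the line than the bound used for the count.

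Genes of androgen glucuronidation rose. All 5 measured UGT2B genes were higher in LNRII control than in LNCaP shCtr, by 6.63-fold to 9.17-fold, with a list median of 2.78 against 0.00 for all genes. UGT2B15 and UGT2B17 encode the main enzymes that glucuronidate dihydrotestosterone and its metabolites in prostate cells, and both are known to be repressed by androgen in LNCaP cells. The other 4 listed members were not measured in this comparison, UGT2B4 and UGT2B7 among them with named probes that were undetected on both arrays.

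The members are near copies of each other, and a probe may read more than 1 of them, which makes the values of single members uncertain. Their promoters are shown because the members moved together. Each run holds 300 bases around the annotated transcription start, read 5′ to 3′ on the gene's strand from RefSeq on GRCh38.p14, and includes the first transcribed bases. UGT2B10 lies on the + strand at chr4:68815744-68816043, UGT2B11 on the - strand at chr4:69214699-69214998 and UGT2B15 on the - strand at chr4:68670603-68670902. Capitals mark matches, on either strand, to the core promoter motif TATAAA and to the core site of forkhead factors such as FOXA1, which reads TGTTTAC, and no match overlaps another.
UGT2B10 promoter: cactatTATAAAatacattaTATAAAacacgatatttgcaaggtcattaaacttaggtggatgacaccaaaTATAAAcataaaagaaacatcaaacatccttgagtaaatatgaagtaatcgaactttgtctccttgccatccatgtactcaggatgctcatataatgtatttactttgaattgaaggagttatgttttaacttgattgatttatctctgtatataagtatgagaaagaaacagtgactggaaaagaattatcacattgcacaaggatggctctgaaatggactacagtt
UGT2B11 promoter: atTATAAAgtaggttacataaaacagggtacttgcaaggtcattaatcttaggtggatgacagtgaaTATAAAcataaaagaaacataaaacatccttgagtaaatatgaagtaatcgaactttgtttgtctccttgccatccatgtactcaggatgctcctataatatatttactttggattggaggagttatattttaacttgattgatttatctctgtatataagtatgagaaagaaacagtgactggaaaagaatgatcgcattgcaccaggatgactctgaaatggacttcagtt
UGT2B15 promoter: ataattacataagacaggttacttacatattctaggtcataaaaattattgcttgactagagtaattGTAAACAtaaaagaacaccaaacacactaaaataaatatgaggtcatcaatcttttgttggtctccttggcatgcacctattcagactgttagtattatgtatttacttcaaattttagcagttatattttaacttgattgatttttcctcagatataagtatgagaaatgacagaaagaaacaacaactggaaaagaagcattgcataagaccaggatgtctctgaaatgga

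The promoters of UGT2B10 and UGT2B11 had 91.3% of 300 bases identical in a global alignment that allowed gaps, and that of UGT2B15 shared 74.0% and 75.3% with them. TATAAA stood 3 times in UGT2B10, 2 times in UGT2B11 and 0 times in UGT2B15. UGT2B15 alone of these 3 held TGTTTAC, once. Of 35116 promoters of this length, 11.53% held TATAAA and 3.42% TGTTTAC. These matches describe the letters only. UGT2B17 and UGT2B28 are named without a sequence.

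UGT2B17 read 10.67 in LNRII control and 6.18 in LNRII TGFB3, against 7.90 in LNCaP shCtr, 6.52 in LNCaP shFOXA1 and 7.12 in LNCaP shFOXA1 LY2157299. UGT2B15 read 9.51 and 5.54 on the LNRII arrays, control first, against 6.34, 5.54 and 5.98 on the LNCaP arrays, shCtr first. UGT2B10 read 9.21 and 5.25 against 6.02, 4.95 and 4.99 on the same arrays. For these 3 genes the LNRII control array was high, LNCaP shCtr was next and the other 3 arrays were lower still. UGT2B11 read 11.46 and 7.84 against 8.69, 6.94 and 7.38. UGT2B28 read 10.65 and 7.20 against 7.92, 6.24 and 6.28. Both again had LNRII control alone above the rest by over 2-fold. A second probe gave 2.99 for UGT2B11, where the first gave 2.78, and 2.77 for UGT2B17, equal to its first. Set against the same LNCaP shCtr array, LNRII TGFB3 gave a UGT2B list median of -0.80, so the increase was present in 1 of the 2 LNRII arrays. The 3 measured genes of the related UGT1A family stayed within 0.34 of 0. UGDH, which makes the glucuronic acid donor, differed by 0.73.

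A part of the prostate secretory programme fell. Of 40 measured androgen-induced genes, 12 fell and 0 rose, with a median of -0.63. Of 30 measured luminal identity and secretory genes, 11 fell and 2 rose, with a median of -0.65. Against this, 3.07% of all genes fell, 2.17% rose and the median was 0.00. Of the other members, 28 androgen-induced and 17 luminal genes passed 2-fold in neither direction. With median scaling 20 androgen-induced and 15 luminal genes fell, and without background correction 8 and 7. The measured genes KLK2, KLK3, KLK4, SLC45A3, SPDEF, STEAP2 and TMPRSS2 stand in both lists, so the lists are not separate.

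KLK3, the gene of prostate-specific antigen, read 6.61 in LNRII control and 7.44 in LNRII TGFB3, against 8.18, 8.26 and 7.94 on the LNCaP shCtr, shFOXA1 and shFOXA1 LY2157299 arrays. The difference between the compared arrays was -1.57, or 2.96-fold. KLK4, a kallikrein protease of prostate, read 8.99 and 10.07 on the LNRII arrays, control first, against 11.47, 11.55 and 11.64 on the LNCaP arrays. In both genes LNRII control was lowest, LNRII TGFB3 next and the LNCaP arrays highest, and for KLK4 both LNRII arrays were more than 2-fold below all 3 LNCaP arrays. KLK2, a further androgen-induced kallikrein, fell by 1.03 on the log2 scale, with -0.57 for LNRII TGFB3, and it missed 2-fold without background correction.

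ACP3, which encodes prostatic acid phosphatase, read 7.24 and 8.09 in LNRII control and LNRII TGFB3, against 10.05, 9.61 and 8.59 on the LNCaP arrays in the order shCtr, shFOXA1 and shFOXA1 LY2157299. PLPP1, an androgen-regulated phospholipid phosphatase, read 8.05 and 9.95 against 10.88, 11.07 and 10.74. EAF2, an androgen-induced elongation factor partner, read 7.18 and 7.26 against 9.56, 9.57 and 9.09. The 3 genes show different patterns over the arrays: EAF2 was low on both LNRII arrays, whereas for PLPP1 the LNRII TGFB3 array lay nearer to the LNCaP arrays than to LNRII control. The differences between the compared arrays were 7.03-fold for ACP3, 7.10-fold for PLPP1 and 5.22-fold for EAF2. KRT8, a keratin of luminal cells, fell by 1.19, with -0.64 for LNRII TGFB3, while its partner KRT18 differed by -0.16. TMPRSS2, an androgen-induced protease, differed by -0.58, with 0.43 for LNRII TGFB3.

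The 2 secretory genes that rose were TFF3, a trefoil peptide of mucosal surfaces, and MSMB, which encodes a major protein of seminal fluid. TFF3 read 7.84 and 8.40 on the LNRII arrays, control first, against 5.52, 5.29 and 5.52 on the LNCaP arrays, a difference of 2.32. MSMB, outside the rule for named genes, was 2.83-fold higher. Both were more than 2-fold apart between both LNRII arrays and all LNCaP arrays. Set against LNCaP shCtr, LNRII TGFB3 gave medians of -0.10 for the androgen-induced and -0.09 for the luminal list, where LNRII control gave -0.63 and -0.65.

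Of 18 measured androgen-repressed genes, 6 rose and 3 fell, where 2.17% of all genes rose and 3.07% fell. Of the 6, 3 were UGT2B genes, whose probes may read more than 1 member. The other 3 were LAMA1 (1.08, and 0.31 for LNRII TGFB3), OPRK1 (1.49, and 0.97, outside the rule for named genes) and TGFBR3 (1.32). Without background correction 3 members rose and 3 fell. The fallen members were PEG3, ID1 and ID3, described below. The list median was 0.10 with quantile normalization and -0.17 with median scaling. Of 10 measured genes for AKR1C and other androgen-converting enzymes, 2 rose and 0 fell, where 2.17% and 3.07% of all genes did. These were AKR1C2 (1.47) and AKR1C4 (1.02), both reductases of steroids. For LNRII TGFB3 they were 4.18 and 4.05, and AKR1C4 missed 2-fold both with median scaling and without background correction. Each was read by 1 detected probe, of 6 named for AKR1C2 and 2 for AKR1C4, and these ranked the 5 arrays in the same order. Whether a probe reads more than 1 AKR1C member was not tested, so the 2 increases may not be separate. AKR1C3, which makes testosterone from androstenedione, read 5.03 in LNRII control and 5.06 in LNCaP shCtr, next to the detection floor.

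The receptor that defines LNRII was not detected on the compared arrays. TGFBR2 has 3 named probes, and 0 of them were detected in LNRII control, LNRII TGFB3 or LNCaP shCtr. On the LNCaP shFOXA1 and shFOXA1 LY2157299 arrays, a TGFBR2 probe was detected at 4.89 and 4.72 and another at 4.76 and 5.01, near the detection floor. The sources used here do not place these probes within or outside the viral insert, and the LNRII label has no check from them. TGFBR1, TGFB1, TGFB2 and TGFB3 were likewise undetected on both compared arrays, though TGFB3 read 5.73 in LNCaP shFOXA1 and 5.37 in LNCaP shFOXA1 LY2157299. SMAD7, an inhibitory SMAD that the pathway induces, read 5.29 in LNRII control and 5.67 in LNCaP shCtr, less than 2-fold apart. TGFBR3, the co-receptor betaglycan, read 7.40 and 6.67 on the LNRII arrays, control first, against 6.08, 7.34 and 7.70 on the LNCaP arrays. It was 1.32 higher in LNRII control than in LNCaP shCtr, but its LNRII control level lay between those of the other LNCaP arrays.

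Of 23 measured TGF-beta pathway components, 1 rose (TGFBR3) and 1 fell (PMEPA1), near the 2.17% and 3.07% of all genes, with a median of -0.28 and of 0.19 for LNRII TGFB3. With median scaling 1 rose and 3 fell, and without background correction 0 and 1. PMEPA1, a feedback inhibitor that both TGF-beta and androgen induce, read 7.40 in LNRII control and 9.97 in LNRII TGFB3, against 9.74, 9.57 and 8.87 on the LNCaP arrays. LNRII control was the low array, 5.08-fold below LNCaP shCtr, and a second probe gave -2.01 beside -2.35. TGFBR3 and PMEPA1 differed in opposite directions between the compared arrays, and for both the LNRII TGFB3 array lay nearer to LNCaP shCtr than to LNRII control.

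Of 33 measured TGF-beta target genes, 8 fell and 1 rose, where 3.07% of all genes fell and 2.17% rose. With median scaling 9 fell and 1 rose, and without background correction 7 and 1. The list median was -0.05, with 0.26 for LNRII TGFB3, and -0.27 with median scaling. Only 22 of the 33 were detected in LNRII control, against 32 in LNCaP shCtr. The -0.05 was the bound of FN1, undetected in LNRII control, and was thus set by the detection floor. The ID genes, which encode inhibitors of basic helix-loop-helix factors and are best known as targets of the BMP branch, were among those that fell. ID1 read 5.86 and 5.34 on the LNRII arrays, control first, against 9.35, 9.94 and 9.61 on the LNCaP arrays, which made it 11.2-fold lower. IGFBP3, which binds insulin-like growth factors, read 5.24 and 5.82 against 8.79, 10.60 and 10.00. For both genes the 2 LNRII arrays were low, the 3 LNCaP arrays were high and the gap between the nearest arrays of the lines was -3.49 for ID1 and -2.97 for IGFBP3. ID2 and ID3, added after their values were seen, differed by -1.59 and -2.07, with -0.64 and -2.46 for LNRII TGFB3.

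THBS1, the matrix protein thrombospondin that can activate latent TGF-beta, was undetected in LNRII control and read 4.80 in LNRII TGFB3, against 7.68, 9.21 and 8.97 on the LNCaP arrays. Its difference was -2.65 or lower. ACTA2, smooth muscle actin, read 7.57 and 8.97 on the LNRII arrays, control first, against 10.41, 11.77 and 10.91 on the LNCaP arrays. It was 7.20-fold lower, and its LNRII TGFB3 level lay between LNRII control and LNCaP shCtr. BHLHE40, a circadian and hypoxia-linked repressor, was the target that rose (1.52, and 0.79 for LNRII TGFB3). CCN1, a matricellular protein, fell by 1.38, but was at -0.10 for LNRII TGFB3 and missed 2-fold without background correction.

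Other contractile genes fell with ACTA2. Of 25 measured actin and contractile genes, 5 fell and 0 rose, where 3.07% of all genes fell and 2.17% rose. The list median was -0.34, with 0.02 for LNRII TGFB3. With median scaling 6 fell, and without background correction 2. ACTG2, a further smooth muscle actin, fell by at least 3.01-fold. CALD1, which encodes the actin-binding protein caldesmon, fell by 1.30, with -1.34 for LNRII TGFB3, and its second probe gave -2.11. PDLIM5, a scaffold at the actin cytoskeleton, fell by 1.27, with -1.62 for LNRII TGFB3. ACTA2, ACTG2 and PDLIM5 were 3 of the genes lying below all LNCaP arrays on both LNRII arrays, but ACTG2 and PDLIM5 missed 2-fold without background correction.

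Most of the measured epithelial and mesenchymal genes passed 2-fold in neither direction. CDH1, E-cadherin, read 11.23 in LNRII control and 11.12 in LNCaP shCtr, a difference of 0.10 that turned to -0.30 with median scaling. VIM, vimentin, read 7.78 and 6.94 on these arrays, a difference of 0.84 that missed 2-fold, and its second probe gave 0.72. Of 10 measured mesenchymal genes, FOXC2 rose (1.64), CALD1 and TWIST1 fell, and the other 7 passed neither direction. Of all genes, 2.17% rose and 3.07% fell. FOXC2 was at 0.03 for LNRII TGFB3, and both FOXC2 and TWIST1 missed 2-fold without background correction. Of 32 epithelial junction and identity genes, 2 fell, CLDN8 (-1.26, and -0.38 for LNRII TGFB3) and DSC2 (-1.11, and -1.30), and 0 rose. With median scaling 5 fell, and without background correction 0. FOXA1 itself read 11.81 in LNRII control and 11.92 in LNRII TGFB3, against 11.82 in LNCaP shCtr, which leaves the compared arrays within 0.01 of each other.

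To see which differences were shared by the arrays of a line, genes were kept whose 2 LNRII arrays both differed from all 3 LNCaP arrays by at least 2-fold in the same direction. This held for 57 genes higher in LNRII (0.525% of 10857) and 95 lower (0.875%), 24.2% and 28.5% of the genes past 2-fold between the compared arrays. The arrays of a line had different treatments and are not replicates of each other, and these genes include the compared arrays by construction.

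Cancer-testis genes, which are normally active in germ cells and silent in most other tissues, rose in part. Of 21 measured members 6 rose and 0 fell, where 2.17% of all genes rose and 3.07% fell. The list median was 0.51, with 0.46 for LNRII TGFB3, and 5 of the 6 were apart across all 5 arrays. With median scaling 3 rose and 1 fell, and without background correction 3 and 0. MAGEC2, which encodes a MAGE protein that binds ubiquitin ligases, read 8.09 in LNRII control and 8.92 in LNRII TGFB3, against 4.71 in LNCaP shCtr and 4.86 in LNCaP shFOXA1, with no detection in LNCaP shFOXA1 LY2157299. MAGEA4 read 7.82 and 7.96 against 4.92, 5.08 and 4.98. In both genes the LNRII arrays were high and the LNCaP arrays were at or near the detection floor. PRAME, a melanoma antigen, read 8.67 and 8.84 against 7.44, 7.42 and 7.35, a difference of 1.23 that fell to 0.89 with median scaling. PAGE1, undetected on all 3 LNCaP arrays, was at least 2.47-fold higher.

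DIO1, a deiodinase that activates thyroid hormone, read 9.41 and 9.04 on the LNRII arrays, control first, against 6.01, 6.22 and 6.22 on the LNCaP arrays. Its second probe gave 3.52 where the first gave 3.40. PCDH20, a protocadherin, read 8.40 and 7.78 in LNRII and was undetected on all 3 LNCaP arrays, which makes it at least 13.2-fold higher. TNFRSF19, a receptor of the tumour necrosis factor family, read 9.98 and 10.65 against 7.35, 7.30 and 7.23. These genes had LNRII arrays on one side and LNCaP arrays on the other with no overlap. RALYL (3.47), an RNA-binding protein gene, RBPMS2 (3.01), a further RNA-binding protein gene, TGM3 (2.63), a transglutaminase, MMP16 (2.52), a membrane-bound matrix protease, and NOVA1 (2.37), a splicing factor best known from neurons, followed the same pattern.

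Among genes lower in LNRII, TCEAL9, a member of a family related to elongation factors, was undetected on both LNRII arrays and read 9.31, 9.11 and 9.12 on the LNCaP arrays. It was at least 19.5-fold lower, the largest decrease of the comparison. SLC4A4, a sodium bicarbonate cotransporter, read 5.14 and 4.96 in LNRII control and LNRII TGFB3, against 9.02, 8.04 and 7.89 on the LNCaP arrays. FAT1, an atypical cadherin, read 5.97 and 7.03 against 9.53, 10.10 and 10.27. All 3 genes were low on both LNRII arrays. FAT1 differed by over 2-fold between the LNRII arrays.

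TMEM45B, a transmembrane protein gene, read 5.35 and 5.15 on the LNRII arrays, control first, against 8.50, 8.92 and 8.89 on the LNCaP arrays. LDHB, a subunit of lactate dehydrogenase, read 7.85 and 7.12 against 10.62, 9.96 and 10.02. CXCL8, the neutrophil chemokine interleukin 8, was undetected in LNRII control and read 5.26 in LNRII TGFB3, against 7.61, 9.38 and 10.42. The lines did not overlap for any of the 3, and CXCL8 also differed among the LNCaP arrays. TCEA3, an elongation factor (-2.97 or lower), MAPK13, a p38 kinase (-2.84 or lower), and DEFB132, a beta-defensin (-2.75 or lower), were also lower on both LNRII arrays. FGFR3, a fibroblast growth factor receptor, fell by 2.40 on the log2 scale.

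**Figure D2:**
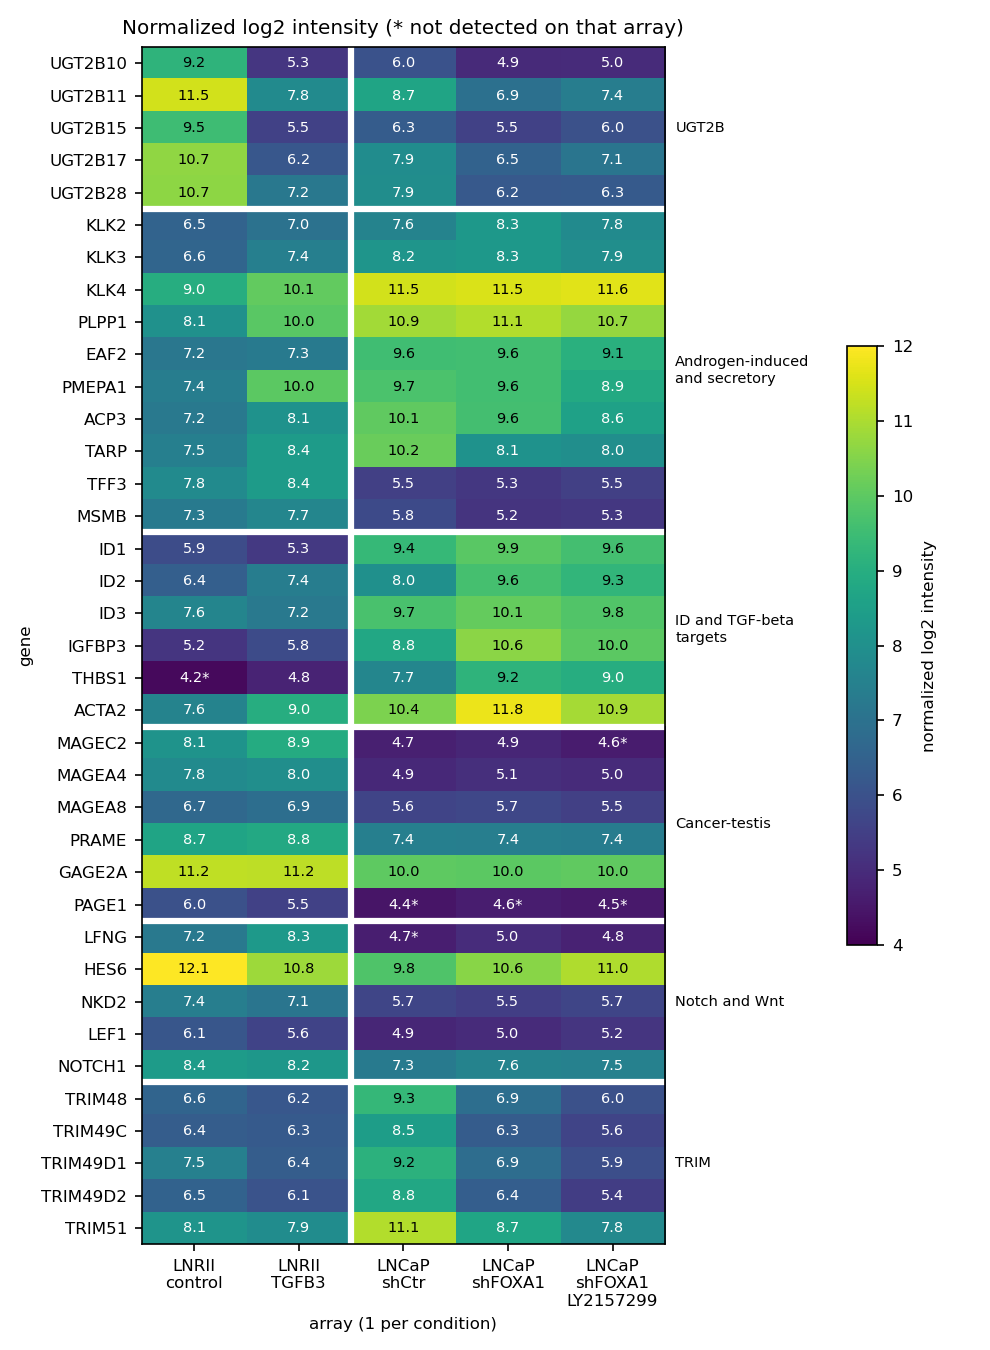
Normalized log2 intensity of 37 genes (rows, in groups) on the 5 arrays (columns, 1 a condition), with the LNRII arrays left of the white line and the LNCaP arrays right of it. UGT2B genes stand out on the LNRII control array alone, and the cancer-testis genes shown are brighter on both LNRII arrays. Of 21 measured cancer-testis genes, 6 rose and 15 passed 2-fold in neither direction. ID1, ID3 and IGFBP3 are darker on both LNRII arrays, and the TRIM genes are brighter on the LNCaP shCtr array alone.

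Some Notch and Wnt genes rose. Of 28 measured members 5 rose and 1 fell, where 2.17% of all genes rose and 3.07% fell. The list median was 0.05, with 0.08 for LNRII TGFB3, and turned to -0.18 with median scaling. With that scaling 4 rose and 2 fell, and without background correction 2 and 0. LFNG, a glycosyltransferase that modifies Notch, read 7.24 in LNRII control and 8.31 in LNRII TGFB3, was undetected in LNCaP shCtr and read 5.03 and 4.76 on the other LNCaP arrays. It was at least 5.88-fold higher. HES6, a Notch-related factor that opposes HES1, read 12.10 and 10.81 against 9.79, 10.57 and 11.04. LFNG separated the lines, whereas the LNRII TGFB3 level of HES6 lay inside the LNCaP range. NKD2, a Wnt antagonist, rose by 1.75, with 1.45 for LNRII TGFB3. LEF1, a Wnt effector in the nucleus, rose by 1.27, with 0.77 for LNRII TGFB3. Both missed 2-fold without background correction.

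Most cell cycle genes passed 2-fold in neither direction. Of 69 measured G2/M and mitosis genes, 65 lay above 0 and 4 below, with a median of 0.48, but only 5 of them rose and 1 fell, where 2.17% of all genes rose and 3.07% fell. With median scaling the median was 0.13 and 0 of the 69 rose, and without background correction 1 did. NEK2, a centrosomal kinase, read 9.70 in LNRII control and 8.80 in LNRII TGFB3, against 8.33, 7.93 and 8.36 on the LNCaP arrays. BUB1, a spindle checkpoint kinase, read 8.66 and 7.65 against 7.41, 6.80 and 7.41. LNRII control was the highest array for both. KIF2C, a microtubule depolymerase, rose by 1.16, with 0.20 for LNRII TGFB3. CENPN, a centromere protein that also stands in the androgen-induced list, fell by 1.30, with -1.06 for LNRII TGFB3. Of 49 measured G1/S genes 1 rose, RFC3 (1.27), and 0 fell, with a median of 0.16 that turned to -0.19 with median scaling. A second RFC3 probe gave only 0.41. LNRII TGFB3 set against LNCaP shCtr gave medians of -0.33 for the G2/M and -0.31 for the G1/S genes, on the other side of 0.

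Histone genes, many of whose mRNAs lack a poly(A) tail, lay mostly below 0. Of 30 measured members 7 fell and 0 rose, where 3.07% and 2.17% of all genes did, with a median of -0.55. With median scaling 11 fell and the median was -0.83, and without background correction 3 fell and it was -0.28. H2BC21 read 7.96 and 9.35 on the LNRII arrays, control first, against 9.69, 10.18 and 9.97 on the LNCaP arrays. H2AC6 read 7.19 and 8.36 against 8.66, 9.40 and 9.19. The LNRII control array was lowest for both, and the list median of LNRII TGFB3 against LNCaP shCtr was -0.32. The 18S rRNA gene given above was lower in LNRII too, and its part in the histone values was not tested.

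Genes of glycolysis and the hypoxia response lay mostly above 0 without passing 2-fold. Of 39 measured members 34 lay above 0, 4 passed 2-fold upward and 1 downward, where 2.17% and 3.07% of all genes did. The median was 0.40, with 0.13 for LNRII TGFB3, and was 0.07 with median scaling. That scaling left 1 upward and 1 downward, and no background correction 3 and 0. HILPDA, a lipid droplet protein, read 9.90 in LNRII control and 9.09 in LNRII TGFB3, against 8.59, 8.12 and 8.49 on the LNCaP arrays. PFKFB4, a regulator of glycolytic flux, read 9.67 and 9.09 against 8.46, 8.30 and 8.17. Both LNRII arrays lay above the LNCaP arrays for these genes, though less than 2-fold across all 5. ADM, the vasodilator peptide adrenomedullin, fell by 1.45, with -1.26 for LNRII TGFB3. Of 49 oxidative phosphorylation subunits and 50 ribosomal protein genes 0 passed 2-fold in either direction, with medians of 0.13 and 0.04 that were -0.24 and -0.23 with median scaling.

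Lipid and amino acid genes moved in both directions. ELOVL6, which elongates saturated fatty acids, rose by 1.43, with 0.54 for LNRII TGFB3, while ELOVL5, which elongates polyunsaturated ones, fell by 1.45, with -1.02. The sterol enzymes SC5D (-1.37, and -0.70 for LNRII TGFB3) and TM7SF2 (-1.32, and -1.10) fell. Of 32 measured cholesterol and fatty acid genes 2 rose and 3 fell, where 2.17% and 3.07% of all genes did. With median scaling 1 rose and 3 fell, and without background correction 2 and 3. SLC7A11, the cystine transporter, was undetected in LNRII control and read 4.80 in LNRII TGFB3, against 6.91, 7.03 and 6.47 on the LNCaP arrays. Its partner chain SLC3A2 fell by 1.33, with -0.91 for LNRII TGFB3. These were the 2 of 41 measured ATF4 and unfolded protein response genes that passed 2-fold, a share near that of all genes, and with median scaling 6 fell. The metallothioneins MT1F (2.52-fold) and MT2A (2.14-fold), which bind zinc and copper, rose. For LNRII TGFB3 their differences were 1.64 and 0.30, and MT2A missed 2-fold with median scaling. The other listed metallothioneins, MT1X, MT1E, MT1H and MT1G, missed 2-fold, at 0.94, 0.61, 0.58 and 0.35. In the same order LNRII TGFB3 gave -0.08, 0.05, -0.06 and -0.49.

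Most of the measured interferon and inflammatory genes passed 2-fold in neither direction. Of 43 measured interferon-response genes 5 fell and 2 rose, where 3.07% of all genes fell and 2.17% rose, and the median was -0.08, with -0.02 for LNRII TGFB3. With median scaling 9 fell and 0 rose, and without background correction 2 and 0. GBP2, an interferon-induced GTPase, read 5.07 in LNRII control and 6.77 in LNRII TGFB3, against 7.75, 9.31 and 8.89 on the LNCaP arrays. IFITM2, an antiviral membrane protein, read 8.43 and 9.05 against 10.08, 10.43 and 10.26, and UBE2L6, the conjugating enzyme for ISG15, read 8.29 and 8.48 against 7.08, 6.65 and 6.85. The LNRII arrays were below the LNCaP arrays for GBP2 and IFITM2 and above them for UBE2L6. Of 19 inflammatory genes 3 rose and 1 fell, and 1 and 1 did so with median scaling as well as without background correction. CCL20, a chemokine for CCR6-bearing cells, read 9.29 and 7.67 against 6.84, 7.44 and 8.85, so it was 2.45 above LNCaP shCtr in LNRII control, while its LNRII TGFB3 level lay below that of LNCaP shFOXA1 LY2157299. IL32 rose by 1.08 and CCL2 by 1.16, and on the other LNCaP arrays both read at or above their LNRII control levels. A second IL32 probe gave 0.73.

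**Figure D3:**
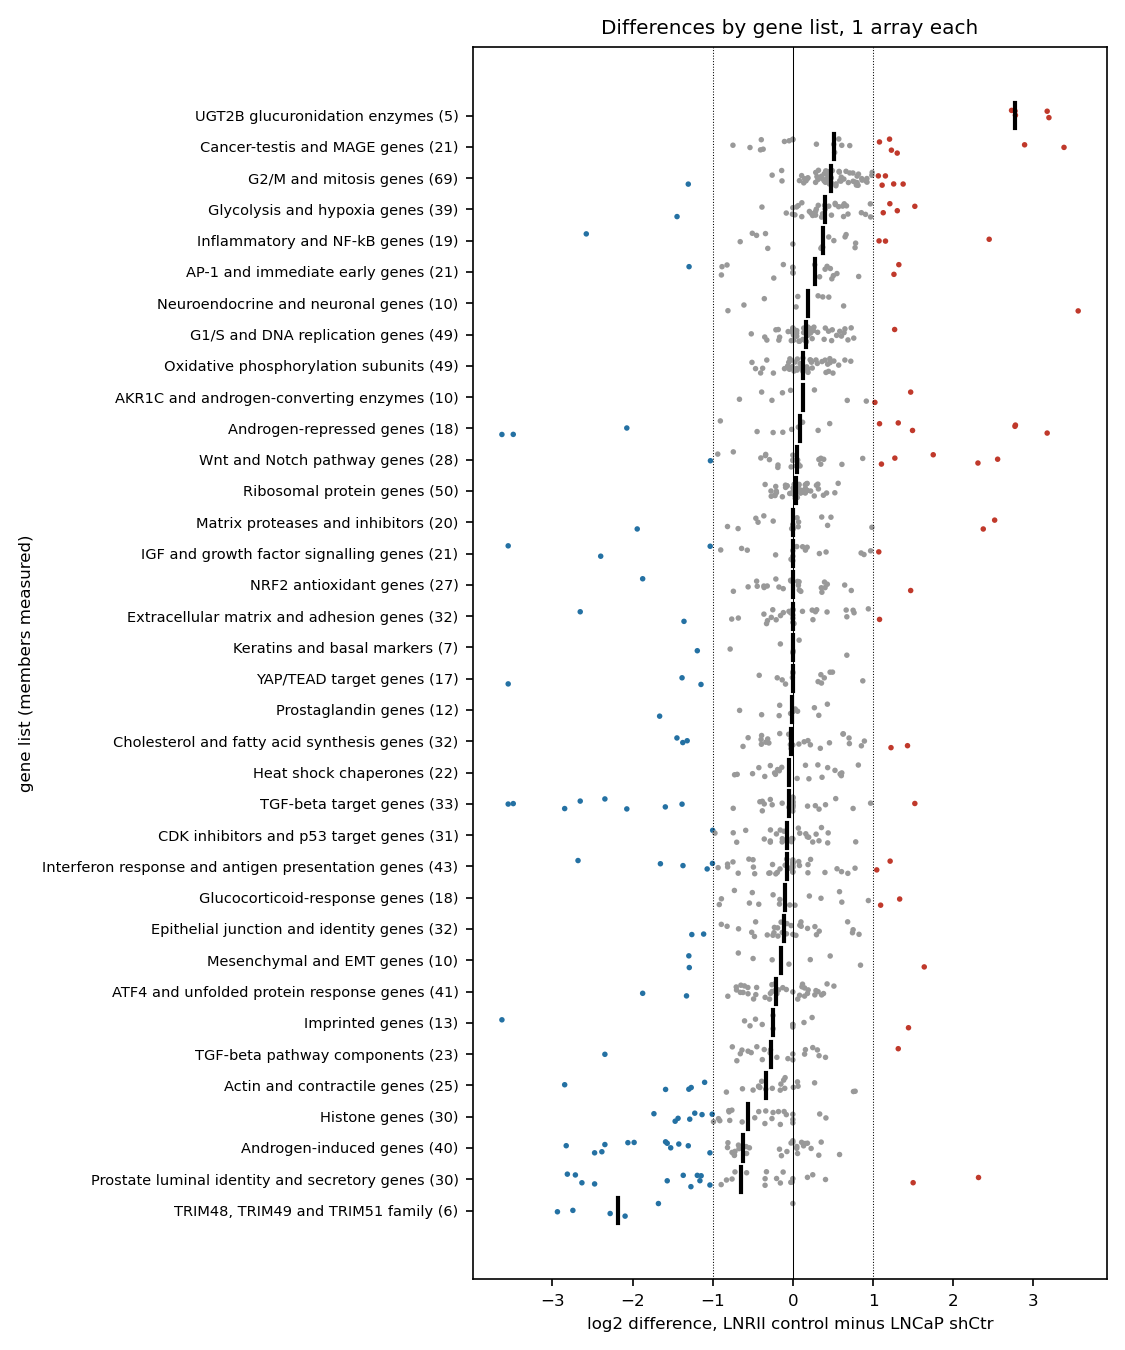
Log2 difference of every measured member (points) of the gene lists with at least 5 measured members, LNRII control minus LNCaP shCtr, 1 array a group, with the list median as a black bar and 2-fold as dotted lines. The UGT2B list lies wholly above 2-fold, the TRIM list has 5 of 6 members below it, and the lists of androgen-induced, luminal and histone genes have medians of -0.63, -0.65 and -0.55.

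Some differences belonged to 1 array alone. A gene was counted so when 1 array stood at least 2-fold above or below all other 4. Of 10857 genes, LNRII control stood alone above for 46 and below for 31, which this rule places among the genes past 2-fold. LNRII TGFB3 stood alone above for 57 and below for 5. LNCaP shCtr stood alone above for 11 genes and below for 7, LNCaP shFOXA1 for 8 and 0, and LNCaP shFOXA1 LY2157299 for 2 and 1. Besides the UGT2B genes, those of LNRII control included ASPH, an endoplasmic reticulum hydroxylase, which read 9.53 there and 7.46 in LNRII TGFB3, against 5.80, 6.29 and 6.77 on the LNCaP arrays. Its second probe gave 3.05 where the first gave 3.73. RPRML, a reprimo-like gene, read 8.70 and 6.25 against 5.14, 5.21 and 5.70.

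Of the 11 genes that LNCaP shCtr held alone above the rest, 5 were of 1 family. Of 6 measured TRIM48, TRIM49 and TRIM51 genes, which encode tripartite motif proteins of closely related sequence, 5 fell in LNRII control, with a list median of -2.19. TRIM51 read 8.15 in LNRII control and 7.88 in LNRII TGFB3, against 11.09 in LNCaP shCtr, 8.70 in LNCaP shFOXA1 and 7.76 in LNCaP shFOXA1 LY2157299. TRIM48 read 6.58 and 6.18 against 9.32, 6.90 and 5.99. For these genes the other 2 LNCaP arrays read about as the LNRII arrays did. Probes of such near copies can read several members, so their agreement is not that of separate genes.

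PEG3, an imprinted zinc finger gene, read 6.52 and 6.81 on the LNRII arrays, control first, against 10.15, 8.39 and 7.45 on the LNCaP arrays. TARP, a prostate-expressed transcript from within the T cell receptor gamma genes, read 7.45 and 8.39 against 10.17, 8.08 and 7.97. RLN1, relaxin, was undetected in LNRII control and read 5.19 in LNRII TGFB3, against 7.66, 5.70 and 5.38. In all 3, LNCaP shCtr was the high array. SERPINE2, a protease inhibitor, was low in LNCaP shCtr, where it read 5.99, against which LNRII control read 8.37, LNRII TGFB3 9.05 and the other LNCaP arrays 7.18 and 7.61.

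Of the 236 genes that rose, 133 (56.4%) had an LNRII TGFB3 level within 2-fold of LNCaP shCtr, and 90 (38.1%) lay nearer to LNCaP shCtr than to LNRII control. Of the 333 that fell, 163 (48.9%) and 82 (24.6%) did so. These comparisons share the LNCaP shCtr array. A pair of arrays with none in common is LNRII TGFB3 against LNCaP shFOXA1, where 312 of 11253 genes were higher (2.77%) and 330 lower (2.93%). It held 105 of the 236 genes that rose (44.5% of these and 33.7% of its own) and 183 of the 333 that fell (55.0% and 55.5%), with medians of 0.89 and -1.07. In this pair TSPAN8 passed 2-fold downward though it had risen, and HERC3 and SLC22A23 upward though they had fallen.

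Against LNCaP shFOXA1 LY2157299, LNRII TGFB3 had 312 of 11131 genes higher (2.8%) and 304 lower (2.73%). It held 86 of the 236 (36.4% of these and 27.6% of its own) and 147 of the 333 (44.1% and 48.4%), with medians of 0.77 and -0.91. CCL2, CCL20, FAM72B and TGFBR3, which had risen, were 2-fold lower in this pair. AZGP1, FAXDC2, HERC3, PMEPA1, SELENOP and SLC22A23, which had fallen, were 2-fold higher. These pairs share the LNRII TGFB3 array, and their members differ from the compared arrays in ligand, hairpin and inhibitor as well.

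**Figure D4:**
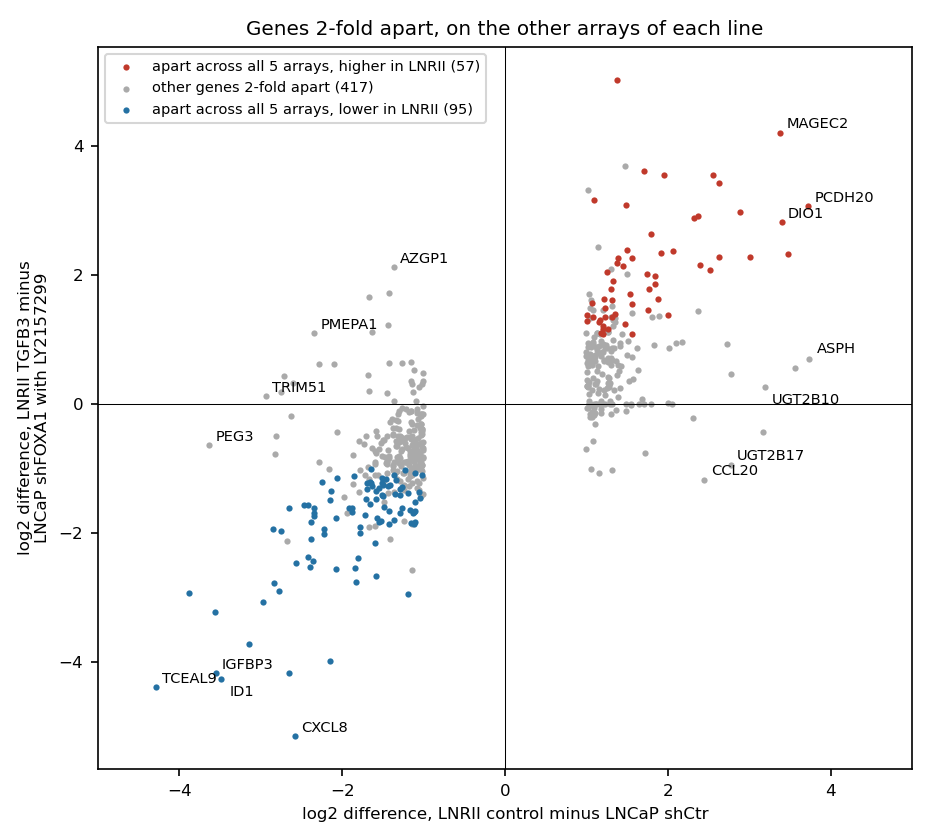
Each point is 1 of the 569 genes past 2-fold between LNRII control and LNCaP shCtr (horizontal axis, log2 difference), set against the log2 difference of LNRII TGFB3 minus LNCaP shFOXA1 LY2157299 (vertical axis), a pair with no array in common with the first. Red and blue mark the 57 and 95 genes apart between both LNRII and all 3 LNCaP arrays, and UGT2B10, ASPH, TRIM51 and PEG3 lie within 1 of 0 on the vertical axis.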

How the data were processed

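RNA of 5 cultures was measured on 5 bead arrays, 1 a condition. The deposited scanner table holds mean bead intensity per probe, not normalized per the file headers, and the authors also deposited detection p-values against the negative controls of each array. Per the submitters' processing notes the readout was by GenomeStudio (version not given in the sources used here). The authors' processed intensity table of the same arrays, of which 25.3% of values are negative and whose column medians are 4.7 for LNRII and 4.5 for LNCaP arrays, was used as an alternative. Its background step, centring and scale are not stated. Its maxima were unequal across lines, and each array was centred on its detected genes before use.

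The neqc function of limma 3.58.1 (R 4.3.3) gave the values used: normexp correction on a background level derived from the detection p-values, offset 16, then quantile normalization of all 5 arrays and log2. Further steps ran in Python 3.11.15 with pandas 2.3.3 and numpy 2.4.6, and plots in matplotlib 3.10.9. Of 47306 probes, 30107 have 1 symbol in the platform table, 8 several and 17191 none there, and 30068 matched a gene of GRCh38.p14 by Entrez identifier, with 0 symbols updated. A gene was read by its brightest probe over the arrays among its detected probes. Of the 10857 genes, 9207 were detected on both arrays, 239 only in LNRII control and 1411 only in LNCaP shCtr. For 816 genes the bound at the detection floor gave no direction and the difference was set to 0. Lists of 39 gene groups hold 1300 symbols, of which 880 were measured.

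Named are the 15 largest increases and decreases, up to 4 members of each list with the largest difference, the 10 largest in each direction among genes apart across all arrays, and a fixed set of genes of the study's question. Some items are not reported here. Genes outside the rule that are shown in a figure or named as differing between pairs of arrays were chosen after their values were seen. The members, lists and rule were chosen with earlier results of these data known. The calculation was tested on simulated data. The number of arrays limits the precision, and p-values for differences were not computed. Alternatives were other background corrections, scalings, detection limits, probe choices, thresholds and the authors' table.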

Additional observations from a re-analysis of the deposited data

How the results depend on the processing

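The counts depended on background correction, scaling and threshold. LNRII control had 59 genes higher and 127 lower than LNCaP shCtr without it, 112 and 198 with a normexp offset of 50, 407 and 527 in the authors' processed table, 50 and 94 at 3-fold, and 110 and 824 with median scaling. For genes apart between both LNRII and all 3 LNCaP arrays, the counts were 17 higher and 34 lower without background correction, 29 and 51 with the offset of 50, 94 and 149 in the authors' table, and 20 and 30 at 3-fold. Cyclic loess, the 2 arrays normalized alone, a detection p of 0.05, detection on both arrays, the median over probes and no detection floor kept the counts within 1.5 times. Normalizing the 2 arrays alone gives no value for the other arrays. Of the 236 and 333 genes, 45 and 123 passed 2-fold in the same direction under each setting at that threshold, leaving aside the filter for detection on both arrays. No gene past 2-fold changed direction among the 162 named.

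Without background correction 33 of 105 named genes past 2-fold missed it, among them KLK2, BUB1, KIF2C, PRAME, TGFBR3, SERPINA3, SLC7A11, TWIST1 and CCN1. With median scaling 15 did, all of them among those that rose, and 8 of 38 list medians changed sign. FOXA1 differed by 0.09 in the authors' table and AKR1C3 by 0.11 with cyclic loess, against -0.01 and -0.03. Signal near the detection floor, 5.03 in LNRII control, limits what could be compared. No paired analysis was possible because each condition had 1 array.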
